A study of Drosophila melanogaster with 6 samples.

Results

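The vacuolar ATPase is the proton pump that acidifies lysosomes, endosomes and secretory vesicles. Its soluble V1 sector burns ATP and turns a central shaft, and its membrane-bound V0 sector carries protons through a ring that the shaft drives. Flies keep several paralogs of many subunits, and in the fly some paralogs are restricted to particular tissues such as the testis. Described here are the genes of Drosophila melanogaster whose current symbol begins with Vha and that have a probe set annotated with a single gene symbol. There were 31 such genes (32 probe sets) of 11982 genes with such a probe set on the array. They comprised 11 V1 genes, 18 V0 genes and 2 genes for accessory proteins of the pump, and the probe set with the highest mean stood for each gene. Of 33 Vha genes in the RefSeq gene table, Vha68-1 and Vha68-2, which encode the catalytic A subunit, had no probe set with a single symbol here and were not analysed.

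RNA was measured on 6 Affymetrix arrays of total RNA from S2 cells, a haemocyte-like Drosophila line of embryonic origin, taken 48 h after transfection. The groups were a control transfection, described by the submitters as empty vector (2 arrays), and the plasmid pAc-Clk at 10 ng (2 arrays), 30 ng (1 array) or 100 ng (1 array). Clk is the bHLH-PAS activator of the circadian clock, and the share of cells that took up the plasmid is not stated in the labels. The labels do not say whether replicates come from different cultures, so the p-values reflect only how far these arrays scatter, and that scatter may be technical. The comparisons with control at 10, 30 and 100 ng all use the same 2 control arrays. In bulk RNA, fewer cells of a kind and less RNA per cell cannot be told apart.

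Values are GCRMA signals read as log2, a reading taken from their range, and a reading of the deposited numbers at face value would multiply each change by 1.443. For Clk itself the signal was 2.50 and 2.84 on the controls, 3.46 and 3.47 with 10 ng, 5.07 with 30 ng and 4.66 with 100 ng. Its control readings lay under the highest Tag control probe set of their arrays (2.96 and 2.97), and its signal was not higher at 100 than at 30 ng. The signal of tim, a direct target of Clk in the fly clock, was 3.27 and 4.03 on the controls, 8.56 and 8.18 with 10 ng, 9.85 with 30 ng and 12.35 with 100 ng, in the order of dose. All 9 haemocyte markers examined, among them srp, Hml and NimC1, read above the highest of 17 Tag control probe sets, which match no fly transcript, on every array. Markers of muscle, fat body, neurons and tubule or gut read from 2.16 to 9.49, and those above that background on all 6 arrays were elav, brp, Fbp1, Drip and the transcription factor gene ct. Summed on the linear scale, neuronal markers came to 98.8 to 118.3 on the control and 10 ng arrays, 122.6 at 30 ng and 228.7 at 100 ng, and tubule or gut markers to 259.4 to 444.3, 365.8 and 760.8. Most of each sum came from 1 gene. The tubule gene ct read 7.84 to 8.71 on the control and 10 ng arrays and 9.49 at 100 ng, while Drip read 3.79 to 3.94 and 3.64. The neuronal gene elav read 5.89 to 6.40 and 7.53, while brp read 3.99 to 4.34 and 4.17. Haemocyte markers did not move alike at 100 ng. Pxn read 10.58 there (14.05 and 14.22 on the controls) and Hml 10.53 (12.54 and 12.53). He read 14.36 (13.62 and 13.74 on the controls) and eater 13.44 (12.80 and 12.78). The part of all these markers in the results at 100 ng was not tested. Averaged over 3 control transcripts, the 5' minus 3' signal of the controls was -0.75 ± 0.0040 and that of the 10 ng arrays -0.94 ± 0.43 (SD, n = 2 for each), but it was -9.40 at 30 ng and -8.25 at 100 ng. With 1 array per higher dose, low 5' signal and dose cannot be told apart in any result at 30 or 100 ng, and the part of the low 5' signal in those results was not tested.

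S2 cells carried RNA for a nearly complete set of pump subunits. Among subunits with several paralogs measured, D, F, c and c'' had 1 well above background, and a, d and e had 2. A second c paralog, Vha16-4, also read above the highest Tag control on all 6 arrays, but at no more than 3.78. Of the 31 genes, 17 read above the highest Tag control on all 6 arrays, 6 on none and 8 on some. Testing required a signal of at least 4 on 2 or more arrays, which left 16 genes (7 V1, 8 V0 and 1 accessory), all of them at 4 or more on all 6 arrays. They covered 12 of the 13 subunits listed (8 of V1, 5 of V0), the exception being A, where Vha68-3 was the paralog measured. The lowest reading of any tested gene was 7.77, while the highest of any untested gene was 3.78. Probe sets differ in how strongly they bind, so these levels are set against background and not against each other.

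**Figure D1:**
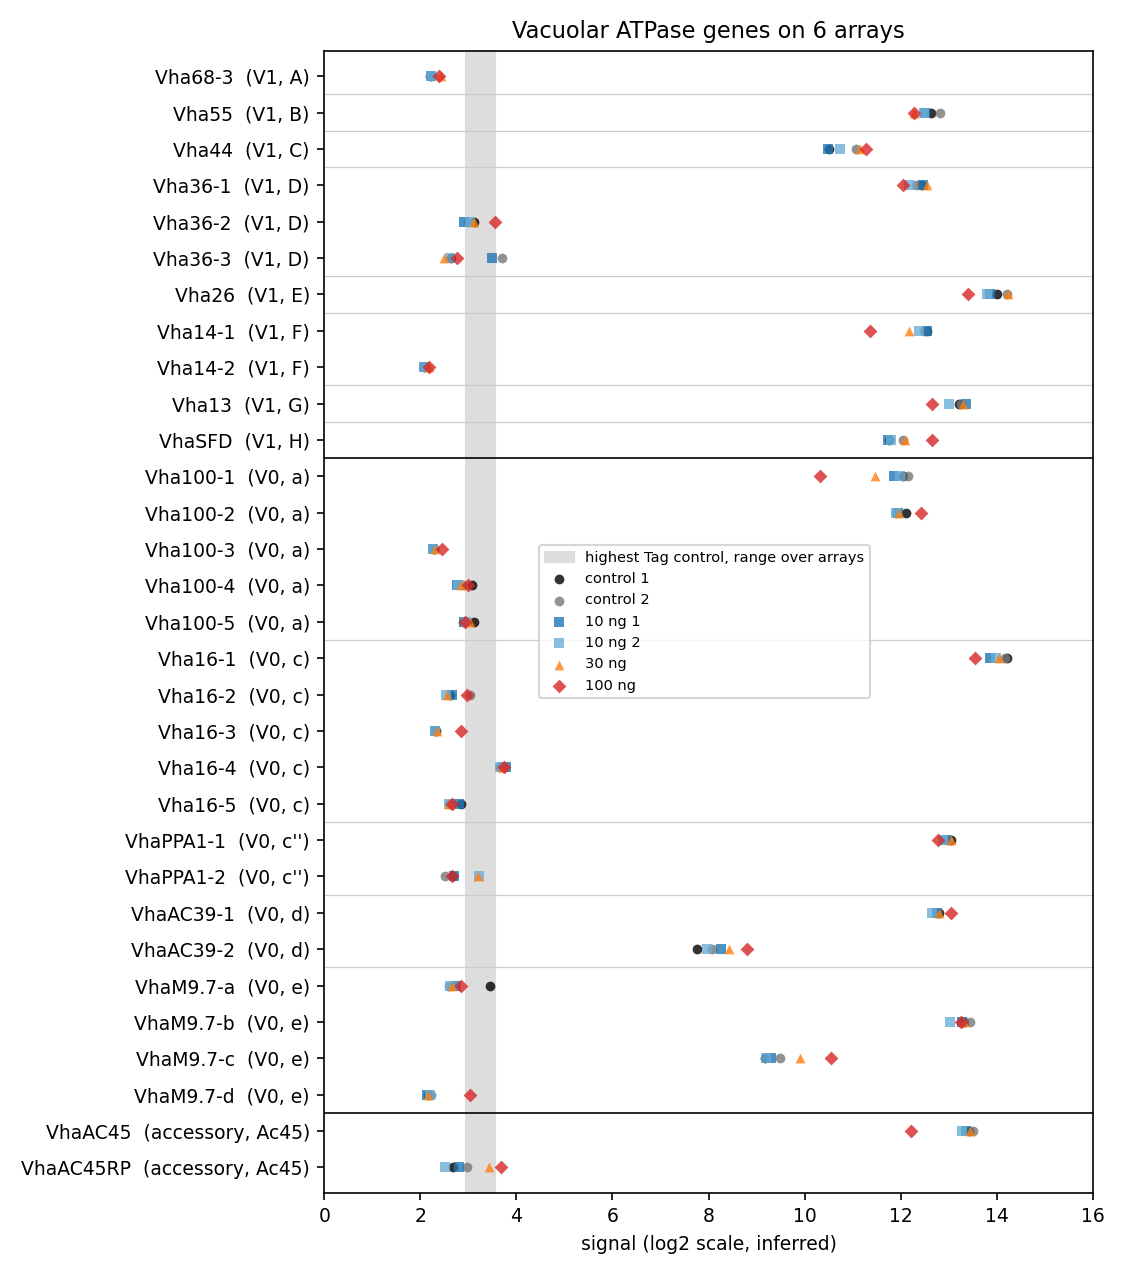
Signal of each of 31 vacuolar ATPase genes (rows, grouped by sector and subunit) on a log2 scale (x axis), with 1 point per array and the range of the highest Tag control over the arrays in grey. The 16 tested genes sit at 7.77 or more, and the other 15 at 3.78 or less, in or near the grey band.

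Among V1 genes, 1 paralog each of the subunits D and F was well above background. Vha36-1 (D, which with F forms the central shaft) read 12.45 and 12.33 on the controls, 12.46 and 12.17 at 10 ng, then 12.55 at 30 ng and 12.05 at 100 ng. Vha36-2 read 3.12 and 2.99, 2.92 and 3.03, 3.12 and 3.54 on the same arrays, just above the highest Tag control on the controls alone, and Vha36-3 read from 2.48 to 3.69. Vha14-1 (F) read from 11.37 to 12.55 and Vha14-2 from 2.07 to 2.18. Vha68-3 read from 2.20 to 2.43, under the highest Tag control of each array (2.95 to 3.56). The remaining V1 subunits are encoded by 1 gene each, and all of these were high: Vha55 (B, the ATP-binding partner of A), Vha44 (C), Vha26 (E), Vha13 (G) and VhaSFD (H) read between 10.48 and 14.24.

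Among V0 genes, the c and c'' subunits of the proton-carrying ring were each represented by 1 high paralog, and the a, d and e subunits by a pair. Vha16-1 (c) read from 13.54 to 14.21, whereas Vha16-2, Vha16-3 and Vha16-5 read between 2.30 and 3.02. Vha16-4 read 3.65 and 3.66 on the controls, 3.78 and 3.66 at 10 ng, then 3.69 at 30 ng and 3.74 at 100 ng, above the highest Tag control of each array but under the minimum of 4 for testing. VhaPPA1-1 (c'') read 13.05 and 12.98 on the controls, 12.95 and 12.88 at 10 ng, then 13.06 at 30 ng and 12.77 at 100 ng, and VhaPPA1-2 read from 2.51 to 3.22.

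For the a subunit, which holds the proton half-channels and is known in flies for setting where the pump acts, Vha100-1 (10.32 to 12.15) and Vha100-2 (11.89 to 12.42) were both high. Vha100-3 (2.25 to 2.45), Vha100-4 (2.76 to 3.08) and Vha100-5 (2.88 to 3.12) were at or near background, above the highest Tag control on 0, 1 and 1 of 6 arrays. For the d subunit, which links the shaft to the ring, VhaAC39-1 read 12.79 and 12.76 on the controls, 12.75 and 12.64 at 10 ng, then 12.81 at 30 ng and 13.05 at 100 ng, and VhaAC39-2 (7.77 to 8.80) was above background as well. For the small membrane subunit e, VhaM9.7-b read 13.33 and 13.45 on the controls, 13.28 and 13.02 at 10 ng, then 13.32 at 30 ng and 13.25 at 100 ng. In the same family VhaM9.7-c (9.17 to 10.55) was above background, and VhaM9.7-a (2.60 to 3.44) and VhaM9.7-d (2.13 to 3.03) were not above it on most arrays.

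The accessory protein Ac45 is encoded by VhaAC45, which read from 12.22 to 13.51. Its relative VhaAC45RP read 2.69 and 2.96 on the controls, 2.80 and 2.52 at 10 ng, then 3.43 at 30 ng and 3.67 at 100 ng. Only the last pair of values exceeded the highest Tag control of their arrays (3.18 and 3.56), and the gene was not tested.

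For the a and c'' subunits, a paralog high and a paralog low in S2 cells lie close together on the chromosome, by the order of protein-coding genes in RefSeq Release 6 plus ISO1 MT. Vha100-2 (high) and Vha100-4 (near background) had 0 such genes between them, and VhaPPA1-1 (high) and VhaPPA1-2 (near background) had 1. Vha16-2 and Vha16-3, both at or near background, were also direct neighbours, with 0 genes between them.

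The question of the 10 ng comparison, the dose with replicates, was whether pump genes respond to a small amount of Clk. No difference was detectable: 0 of 16 Vha genes were called higher and 0 lower (limma, adjusted p = 1.00 for each gene, 0 at an unadjusted p under 0.05). Over all 6612 genes tested, 0.0605% were called higher and 0% lower at this dose. The widest intervals still allowed a change, with 95% bounds from -0.61 (Vha44) to 0.65 (VhaAC39-2), or 1.52-fold lower to 1.56-fold higher.

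At 10 ng the differences from control were small and mostly below 0. They ran from -0.28 for Vha26 to 0.19 for VhaAC39-2. Of 16 changes, 15 were below 0 (76.21% of all genes), with a median of -0.12 against -0.09 over all genes. In 8 of 16 genes both 10 ng arrays read lower than both controls (22.9% of all genes), and in 0 both read higher (3.57% of all genes). After quantile normalization 7 of 16 changes were below 0 (47.45% of all genes) and the median was 0.0078. After median centring 15 of 16 were below 0 (75.86% of all genes) and the median was -0.11.

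At 30 ng, Vha100-1 was the 1 pump gene called lower, and 0 were called higher. Over all genes 6.22% were called higher and 10.4% lower, so 1 of 16 (6.25%) lower and 0 higher lie below these shares. Vha100-1 read 12.04 and 12.15 on the controls, 11.87 and 11.98 at 10 ng, then 11.47 at 30 ng and 10.32 at 100 ng. The 30 ng array lay below all 4 control and 10 ng arrays, and the 100 ng array lower still. The change at 30 ng was -0.63 (SE 0.16, limma adjusted p = 0.0250), a call made in 11 of 15 settings, and it was not called without control replicate 1 (-0.68, adjusted p = 0.101) or control replicate 2 (-0.57, adjusted p = 0.162).

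The next largest differences at 30 ng were in VhaM9.7-c (0.59, 95% interval 0.13 to 1.04, adjusted p = 0.0748), VhaAC39-2 (0.51, adjusted p = 0.181) and Vha55 (-0.45, 95% interval -0.80 to -0.10, adjusted p = 0.0754), and none of these passed. The median of the 16 changes was 0.04, against 0.15 over all genes tested.

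At 100 ng, 4 pump genes passed as higher and 7 as lower, with the spread of this lone array taken to equal that of the replicated groups. Over all genes 34.9% were called higher and 35.4% lower, against 25.0% and 43.8% of the 16 Vha genes, so calls were common on this array in general. The median change was -0.29, against 0.05 over all genes. The split depended on scaling: 36.4% of the Vha calls were higher as deposited, 54.5% after quantile normalization (6 higher, 5 lower) and 9.09% after median centring (1 higher, 10 lower). The share over all genes moved with the same scalings, from 49.7% to 56.9% and 34.7%. Of these 11 calls, 4 held in all 15 settings tried, those of Vha100-1, Vha14-1, VhaAC45 and VhaM9.7-c.

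**Figure D2:**
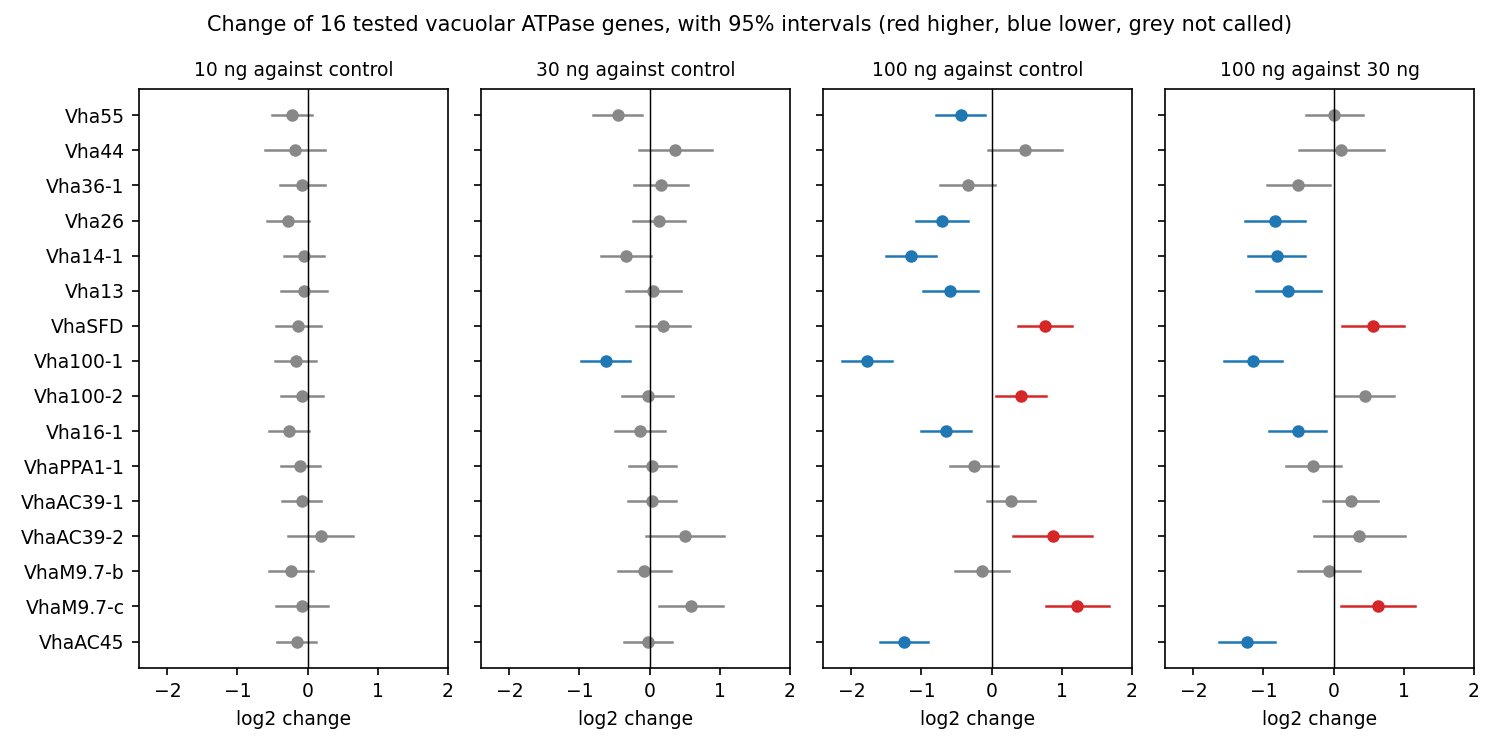
Log2 change (x axis) of the 16 tested genes in 4 comparisons, with points for the estimates and bars for 95% intervals of the limma fit, red where called higher, blue where called lower and grey where not called. At 10 ng no interval reaches past -0.61 or 0.65, and at 100 ng the estimates run from -1.78 (Vha100-1) to 1.23 (VhaM9.7-c).

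Among V1 genes at 100 ng, 4 fell and 1 rose. Vha14-1, the F subunit of the shaft, read 12.55 and 12.48 on the controls, 12.54 and 12.39 at 10 ng, then 12.18 at 30 ng and 11.37 at 100 ng. Its values at 30 and 100 ng lay below the other 4 arrays. It fell 2.21-fold at 100 ng (log2 change -1.15, SE 0.16, limma adjusted p = 0.000118).

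The peripheral stalk genes Vha26 (E) and Vha13 (G) also fell at 100 ng but not at 30 ng. Vha26 read 14.00 and 14.22 on the controls, 13.87 and 13.79 at 10 ng, then 14.24 at 30 ng and 13.40 at 100 ng, a change of -0.71 (adjusted p = 0.00340). Vha13 read 13.21 and 13.26 on the controls, 13.35 and 13.02 at 10 ng, then 13.29 at 30 ng and 12.65 at 100 ng, a change of -0.59 (adjusted p = 0.0136). Both had their lowest reading on the 100 ng array. For Vha26 both 10 ng arrays also lay below both controls, whereas for Vha13 the 10 ng arrays lay on either side of them.

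Vha55, the B subunit, read 12.63 and 12.81 on the controls, 12.51 and 12.50 at 10 ng, then 12.27 at 30 ng and 12.28 at 100 ng. Every array with Clk lay below the lower control, and it fell by 0.44 at 100 ng (adjusted p = 0.0293). Its change after quantile normalization was -0.18 and not called (adjusted p = 0.117).

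VhaSFD, the H subunit, which in yeast restrains the ATPase of free V1, rose. It read 11.75 and 12.04 on the controls, 11.73 and 11.81 at 10 ng, then 12.09 at 30 ng and 12.65 at 100 ng, and was 1.69-fold higher at 100 ng (log2 change 0.76, SE 0.17, adjusted p = 0.00289). Vha44, the C subunit, which in insects and yeast leaves the pump when V1 and V0 come apart, read 10.52 and 11.07 on the controls, 10.48 and 10.74 at 10 ng, then 11.16 at 30 ng and 11.27 at 100 ng (0.48, adjusted p = 0.0932). Its controls differed by more than those of any other tested pump gene, and this change did not pass. Vha36-1 differed by -0.34 (adjusted p = 0.106) and did not pass.

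Among V0 genes at 100 ng, 3 rose and 2 fell. Vha100-1 fell 3.42-fold (log2 change -1.78, SE 0.16, limma adjusted p = 6.22e-06), the largest fall among tested pump genes. VhaM9.7-c showed the largest rise. It read 9.17 and 9.48 on the controls, 9.31 and 9.20 at 10 ng, then 9.91 at 30 ng and 10.55 at 100 ng, 2.34-fold above the controls (log2 change 1.23, SE 0.20, adjusted p = 0.000408). Its 30 and 100 ng arrays lay above the other 4, and the 10 ng arrays lay between the controls.

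VhaAC39-2 read 7.77 and 8.08 on the controls, 8.25 and 7.97 at 10 ng, then 8.43 at 30 ng and 8.80 at 100 ng, where it was 1.83-fold higher (log2 change 0.87, SE 0.25, adjusted p = 0.0106). Its 10 ng and control arrays overlapped, and the 30 and 100 ng arrays lay above them. Vha100-2 read 12.10 and 11.90 on the controls, 11.95 and 11.89 at 10 ng, then 11.97 at 30 ng and 12.42 at 100 ng (0.42, adjusted p = 0.0403). With median centring the change of Vha100-2 was 0.02 (adjusted p = 0.938), so this call rested on the scaling. Median centring also ended the calls of VhaAC39-2 (0.47, adjusted p = 0.145) and VhaSFD (0.35, adjusted p = 0.120). VhaAC39-1 (0.28), VhaPPA1-1 (-0.25) and VhaM9.7-b (-0.14) did not pass.

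Vha16-1, the c subunit of the ring, fell by 0.65 at 100 ng by its brighter probe set (adjusted p = 0.00420), or by 0.21 after quantile normalization, which was not called (adjusted p = 0.206). Before that scaling, the probe set read 14.21 and 14.17 on the controls, 13.86 and 13.99 at 10 ng, then 14.05 at 30 ng and 13.54 at 100 ng, so both 10 ng arrays lay below all others but the 100 ng array. Its second probe set read 13.41 and 13.30, 13.10 and 13.37, 12.88 and 11.58 on the same arrays, a fall of 1.77 at 100 ng (adjusted p = 1.12e-05). Relative to each other, the 2 probe sets of this gene had moved apart by -1.12 at 100 ng and by -0.34 at 30 ng, compared with 0.07 and 0.22 on the 10 ng arrays. The size of the fall thus differed between probe sets of the same gene on the arrays with low 5' signal.

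The accessory gene VhaAC45 read 13.43 and 13.51 on the controls, 13.36 and 13.27 at 10 ng, then 13.45 at 30 ng and 12.22 at 100 ng. Only the 100 ng array stood apart, 2.38-fold below the controls (log2 change -1.25, SE 0.15, limma adjusted p = 5.86e-05). The other accessory protein of the pump, encoded by ATP6AP2 (formerly VhaM8.9 and outside the Vha symbols), fell as well, by 0.89 (adjusted p = 0.000531), and by 0.76 against 30 ng (adjusted p = 0.00581).

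Leaving out a control array ended many of the weaker calls at 100 ng. Without control replicate 1 the counts were 1 higher and 4 lower, and those no longer called were VhaSFD (0.61, adjusted p = 0.0528), VhaAC39-2 (0.72, 0.0632), Vha100-2 (0.52, 0.102), Vha13 (-0.61, 0.0708), Vha16-1 (-0.63, 0.0846) and Vha55 (-0.53, 0.105). Without control replicate 2 they were 4 higher and 3 lower, with Vha13 (-0.56, adjusted p = 0.0960), Vha16-1 (-0.67, 0.0628), Vha26 (-0.60, 0.0961), Vha55 (-0.35, 0.291) and Vha100-2 (0.32, 0.338) lost and Vha44 gained (0.75, 0.0135). None of the 20 calls in the 4 comparisons changed sign in any of the alternatives run.

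The 100 ng array was also compared with the 30 ng array, since both had low 5' control signals (-8.25 and -9.40). These differed by more than the control and 10 ng arrays did among themselves (-1.25 to -0.64). The comparison is thus not matched for 5' signal. It uses no control array, although it shares the 100 ng array with the comparison above. Of 16 Vha genes 2 were higher and 6 lower at 100 ng, where 22.7% and 32.6% of all genes were called. The 6 were VhaAC45 (-1.23, SE 0.18, adjusted p = 0.000350), Vha100-1 (-1.15), Vha26 (-0.84), Vha14-1 (-0.81), Vha13 (-0.64) and Vha16-1 (-0.51). The 2 were VhaM9.7-c (0.64, adjusted p = 0.0433) and VhaSFD (0.57, adjusted p = 0.0359). Both of these rises, and the falls of Vha13 and Vha16-1, were lost without either control array, which enters here only through the estimate of the spread (adjusted p = 0.0652 and 0.0657 for VhaM9.7-c, 0.0878 and 0.0864 for VhaSFD, 0.0662 and 0.0661 for Vha13, 0.184 and 0.185 for Vha16-1). VhaM9.7-c was also lost without 10 ng replicate 1 (adjusted p = 0.0515). Median centring ended both rises too (VhaM9.7-c 0.27, adjusted p = 0.412, and VhaSFD 0.20, adjusted p = 0.484), and quantile normalization ended the fall of Vha16-1 (-0.14, adjusted p = 0.455). Vha55 differed by 0.01 (95% interval -0.39 to 0.42).

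Across the dose series, 5 pump genes read higher at 30 ng than on all control and 10 ng arrays and higher again at 100 ng: Vha44, VhaSFD, VhaAC39-1, VhaAC39-2 and VhaM9.7-c. The 30 ng reading and the highest control or 10 ng reading were 12.81 and 12.79 for VhaAC39-1, and 12.09 and 12.04 for VhaSFD. They were 11.16 and 11.07 for Vha44, 8.43 and 8.25 for VhaAC39-2, and 9.91 and 9.48 for VhaM9.7-c. As deposited, Vha44 and VhaAC39-1 were called in no comparison. Vha100-1 and Vha14-1 went down in the same stepwise way. Over all genes 33.0% rose and 21.0% fell in this order, against 31.2% and 12.5% of the 16 Vha genes.

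Where 2 paralogs of a subunit were above background, their changes were unequal at the higher doses. In each pair the gap between paralogs within an array is given as its difference from the control mean. For the a subunit, Vha100-2 minus Vha100-1 was 0.17 and 0.0067 on the 10 ng arrays, 0.60 at 30 ng and 2.20 at 100 ng, a 4.58-fold shift toward Vha100-2, while the controls lay 0.16 to either side. For the e subunit, VhaM9.7-c minus VhaM9.7-b was 0.09 and 0.24 at 10 ng, then 0.66 at 30 ng and 1.36 at 100 ng (2.57-fold), with the controls 0.09 to either side.

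For the d subunit, VhaAC39-2 minus VhaAC39-1 was 0.35 and 0.18 at 10 ng, then 0.48 at 30 ng and 0.60 at 100 ng, with the controls 0.17 to either side, so that 1 of the 10 ng arrays lay about as far from the controls as the 30 ng array. A scaling factor of an array cancels in these gaps. No test was run on them, and the unequal falls of the 2 Vha16-1 probe sets (-1.12 at 100 ng) show that probe sets of 1 gene can also part on these arrays.

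**Figure D3:**
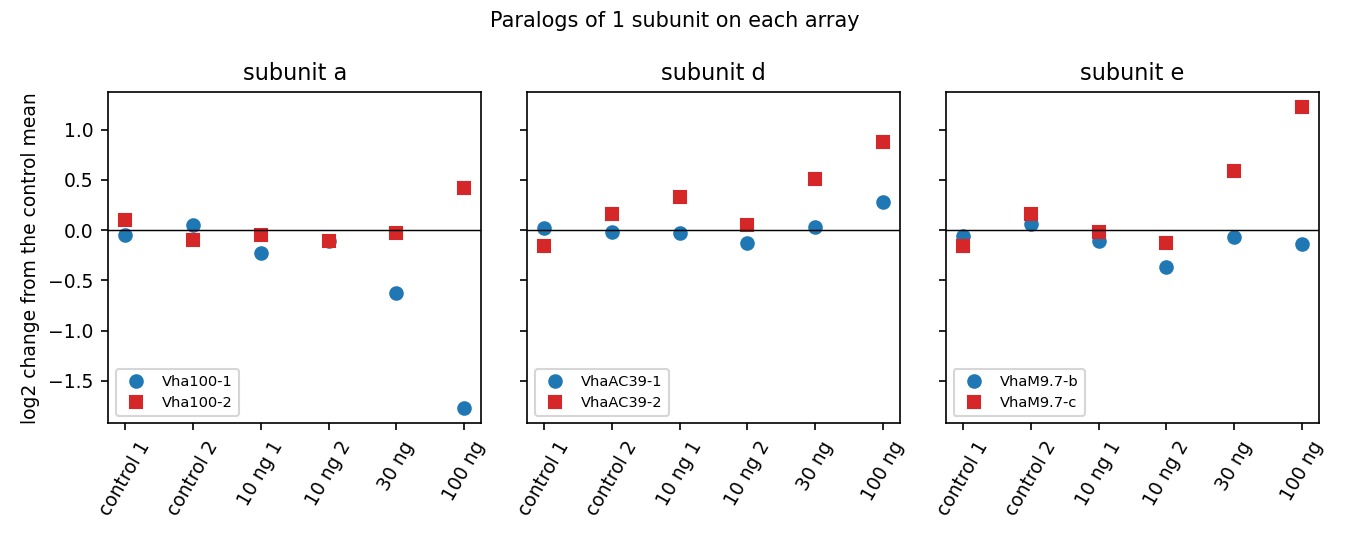
Log2 change from the control mean (y axis) on each of 6 arrays (x axis) for the 2 paralogs above background of subunits a, d and e, with 1 point per array. Vha100-1 ends at -1.78 and Vha100-2 at 0.42 on the 100 ng array, VhaM9.7-c at 1.23 and VhaM9.7-b at -0.14.

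The V1 and V0 sectors were described side by side by the changes of their tested genes. At 10 ng the median was -0.13 over 7 V1 genes and -0.09 over 8 V0 genes, and at 30 ng it was 0.13 and 0.0032. At 100 ng it was -0.44 for V1 and 0.07 for V0, with 1 higher and 4 lower in V1 and 3 higher and 2 lower in V0, where 34.9% and 35.4% of all genes were called. The counts moved with scaling, to 2 higher and 3 lower in V1 and 4 and 1 in V0 after quantile normalization, and to 0 and 5 in V1 and 1 and 4 in V0 after median centring. After quantile normalization the medians at 100 ng were -0.18 and 0.34, so V1 lay below V0 there as well. After median centring they were -0.84 and -0.33. Centring shifts all genes of an array alike, so it cannot change the gap between the sectors. The V0 changes at 100 ng ran from -1.78 to 1.23 and the V1 changes from -1.15 to 0.76, so the sectors overlapped, and the difference between them was not tested. The V0 counts and medians include 2 paralogs each of a, d and e, whereas each V1 subunit enters with 1 gene. VhaAC39-2 (0.87) and VhaM9.7-c (1.23), the dimmer paralogs of d and e, are among the V0 rises.

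**Figure D4:**
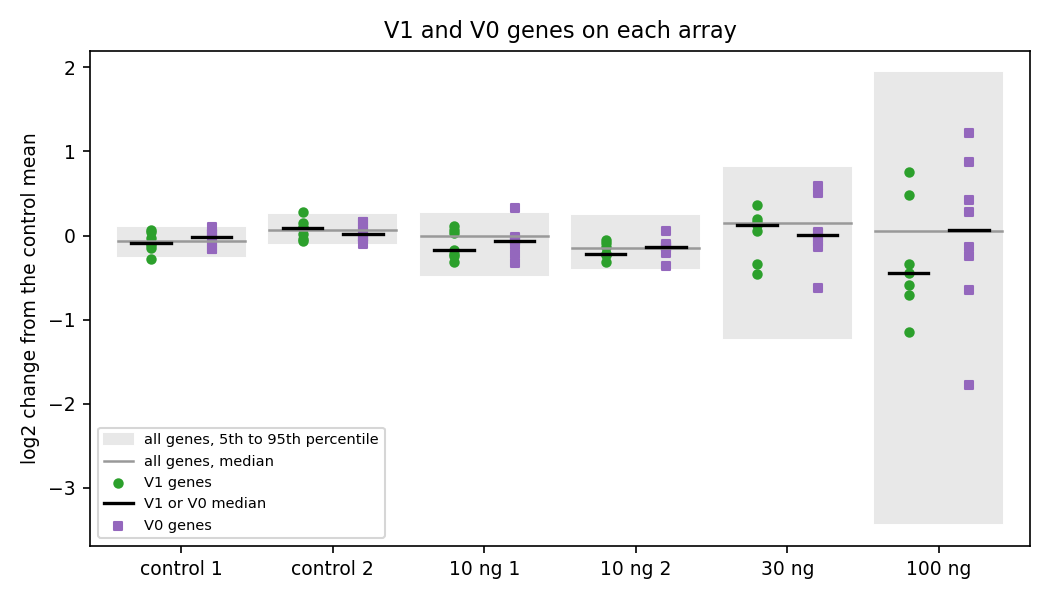
Log2 change from the control mean (y axis) of each V1 gene (circles) and V0 gene (squares) on each of 6 arrays (x axis), with black bars at the sector medians, and grey boxes for the 5th to 95th percentile of all 6612 genes with a grey line at their median. On the 100 ng array the V1 median is -0.44 and the V0 median 0.07, inside a grey box that runs from -3.42 to 1.93.

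Scaling moved the median of all genes at 100 ng from 0.05 as deposited to 0.25 after quantile normalization and -0.35 after median centring. Subtracting that median undoes median centring by construction, so only the other 2 scalings are compared here. Relative to it, VhaM9.7-c stood at 1.17 as deposited and 1.10 after quantile normalization, Vha100-2 at 0.37 and 0.41, and Vha100-1 at -1.83 and -1.93. Vha16-1 moved more, from -0.70 to -0.45.

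Genes chosen as related to the pump, or to its assembly and transcription, were examined as lists. The first list covered Mitf, Max, Mnt and Rbcn-3B, and no link of Max or Mnt with the pump was tested here. Mitf, the fly counterpart of mammalian TFEB, is a bHLH-zipper factor known in flies to activate Vha genes. It read 3.10 and 3.03 on the controls, 3.20 and 3.14 at 10 ng, then 4.10 at 30 ng and 6.83 at 100 ng. The control and 10 ng arrays lay near the highest Tag control (2.95 to 3.22), and the 30 and 100 ng arrays lay above them. Mitf passed the minimum for testing only through those 2 arrays, so no change or test is given for it. Max, a bHLH-zipper protein, differed by 1.26 at 100 ng (higher, limma adjusted p = 0.000131) and by 0.74 against 30 ng (higher, adjusted p = 0.0123). After median centring the rise of Max against 30 ng was no longer called. Scaling also moved the 100 ng change of Mnt described next, to -1.14 after median centring. After quantile normalization no gene measured in this list lay below -0.0085 at 100 ng. Mnt, a partner of Max, was lower at 30 ng (-1.43, adjusted p = 0.0144), and differed by -0.74 at 100 ng (adjusted p = 0.0605) and by 0.69 at 100 ng against 30 ng (adjusted p = 0.140). Rbcn-3B, a component of the complex that assembles V1 onto V0, differed by 0.41 (adjusted p = 0.294).

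Lysosomal enzymes and membrane proteins, the pump's neighbours in the lysosome, did not change detectably at 10 ng (0 of 24 called by limma, 0 at an unadjusted p under 0.05). At 100 ng 5 were higher and 11 lower (20.8% and 45.8%, against 34.9% and 35.4% of all genes), with a median of -0.32, beside -0.29 for the Vha genes. The counts were 6 and 10 after quantile normalization and 3 and 14 after median centring. cathD, a lysosomal aspartic protease, fell by 3.56 (adjusted p = 5.85e-08), Hexo2, a hexosaminidase, by 3.30 (adjusted p = 1.31e-07) and Npc2a, a sterol carrier, by 2.65 (adjusted p = 5.46e-07). The same 3 had the smallest p at 100 ng against 30 ng (-2.50, -2.66 and -2.19).

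Of 18 tested genes of TORC1 signalling at the lysosome, which reads the pump's state, 7 were higher and 7 lower at 100 ng (38.9% each, close to the shares over all genes). The counts were 9 and 4 after quantile normalization and 5 and 7 after median centring. RagC-D, a Rag GTPase, fell by 5.50 (adjusted p = 1.92e-08), while gig (Tsc2, 1.72) and Nprl3 (1.57), both inhibitors of the pathway, rose and Iml1, another inhibitor, fell by 1.52 (adjusted p = 0.000381). Against 30 ng, RagC-D (-4.36) and Iml1 (-1.32) were lower and Tsc1 (1.13) higher. Among 22 endosome and autophagy genes 11 were higher and 6 lower at 100 ng (50.0% and 27.3%, against 34.9% and 35.4% of all genes). Hrs, an ESCRT component, stood at -5.22, Atg6 at -2.73 and Atg101 at 1.98. The counts were 13 and 5 after quantile normalization and 7 and 8 after median centring, so the balance turned with the scaling. Hrs (-3.19), Atg6 (-2.41) and dor (-1.89) were lower against 30 ng.

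The mitochondrial ATP synthase, a rotary enzyme related in structure that runs in the direction of ATP synthesis, was set beside the vacuolar pump. Of 13 genes 3 were higher and 7 lower at 100 ng (34.9% and 35.4% of all genes), or 6 and 7 after quantile normalization and 2 and 7 after median centring. As deposited they had a median of -1.14 and changes from -3.31 to 2.20, against -1.78 to 1.23 in the Vha genes. ATPsyndelta (-3.31), ATPsynD (-2.79) and ATPsynO (-2.35) had the smallest p at 100 ng, and ATPsynD (-2.92), ATPsyndelta (-2.87) and ATPsynC (-2.09) against 30 ng. At 10 ng 0 of 13 were called by limma (0 at an unadjusted p under 0.05). The difference between the 2 enzymes was not tested.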

How the data were processed

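Affymetrix arrays of biotin-labelled total RNA were used, per the labels. Intensities were deposited, in linear units, and made by the authors with GCRMA, per the submitters' processing notes, which give no version or settings. Their natural log spans 1.69 to 15.85 and their log2 reaches 22.86, so the natural log was taken to be the log2 GCRMA signal, which is inferred. Each column is 1 array, and 0 columns were left unassigned.

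Of 18952 probe sets, 183 controls were left out and 13647 carried 1 symbol, 402 several and 4720 none. Of the single symbols, 13544 were updated by Entrez ID through the RefSeq gene list. Probe sets at 4 or more on at least 2 arrays were tested (8446, or 6612 genes). limma 3.58.1 in R 4.3.3, with the data.table package (1.17.8), fitted 1 coefficient per group over all 6 arrays, with trended moderation, 2 residual and 7.605 prior degrees of freedom. Benjamini-Hochberg adjusted p under 0.05 over all probe sets made a call in each of 4 comparisons, and intervals are at 95%. The scripts were tested on simulated data. The number of arrays limits the precision. Only 5 and 6 of 18952 values were identical between replicates.

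The members, the lists and the alternatives were chosen with earlier results of these data known. Every member was named, and in each other list the 3 genes with the smallest p at 100 ng, against control and against 30 ng. No genome coordinates are given, since no genome build was stated for the probe sets, and no sequences were used. Plots used matplotlib 3.10.9 (Python 3.11.15).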

Additional observations from a re-analysis of the deposited data

How the results depend on the processing

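The 10 ng comparison was repeated under 15 alternatives and 1 more chosen after seeing the data (without both single-array doses), those at 30 and at 100 ng under 14 each, and 100 ng against 30 ng under 13. At 10 ng the counts were 0 higher and 0 lower in all of them. At 30 ng 1 gene was higher after quantile normalization, with a filter at 6, with robust moderation and with the mean over probe sets (0 as reported), and the count lower was 2 after quantile normalization or robust moderation and 0 with no filter or at face value (1 as reported). At 100 ng 1 was higher after median centring and 10 with no filter (4 as reported). The unfiltered fit added 7 dim genes, of which 1, VhaAC45RP, lay above the highest Tag control of that array. At 100 ng against 30 ng the count higher was 4 after quantile normalization and 0 after median centring, at face value or with the replicate block (2 as reported). With 1 array left out, the counts ranged from 0 to 1 lower at 30 ng, from 1 to 4 higher and 3 to 8 lower at 100 ng, and from 0 to 3 higher and 4 to 7 lower at 100 ng against 30 ng. Without either control array, with the filter at 6 or with the replicate block limma's prior degrees of freedom became infinite and all genes of like signal shared 1 spread. Same-numbered control and 10 ng arrays deviated together (correlation 0.33 over 8446 probe sets), but the labels give no pairing and there are only 2 numbers. Of 272 alternative values of called genes, 226 kept their call, 46 lost it and 0 reversed, although many of these alternatives could not change a sign. Signal near the Tag controls limits what can be said of the 15 untested genes.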
